A study of Saccharomyces cerevisiae with 8 samples.

Results

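Mitochondrial ribosomal protein genes of the budding yeast Saccharomyces cerevisiae were followed on 8 Affymetrix Yeast Genome 2.0 arrays. On these, each transcript is read by a probe set, a group of short probes that match it. A gene was taken as a member where its annotated symbol was MRPL, MRPS, MRP or RSM followed only by a number, with MRP8 left out. This gave 65 of the 5449 genes tested, of which 34 have an MRPL name, 9 an MRPS name, 11 an RSM name and 11 an MRP name. Each was read by 1 probe set, and 64 of the 65 had a mean signal above that of the dimmest 33.3% of all genes. Of the 65 proteins, 37 belong to the large and 28 to the small subunit of the mitochondrial ribosome. The arrays came from 3 groups of haploid cells of the BY4741 background, with 3 arrays of Δpde2 cells, 2 of Δpde2Δtpk3 cells and 3 of wild type cells. In Δpde2 cells the KanMx marker replaces PDE2, which encodes the high affinity cAMP phosphodiesterase. In Δpde2Δtpk3 cells HIS3 replaces PDE2 and KanMx replaces TPK3, which encodes a catalytic subunit of protein kinase A (PKA). All cells, wild type included, were cultured for 24 h in YPD with 4 mM cAMP added, so that no array shows cells without it. The mutant strains differ in their markers and in their origin, and these cannot be told apart from the loss of TPK3. An array reads the share of a transcript in the RNA of a whole culture, and a change in the mix of cells cannot be told apart from a change in each cell.

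The mitochondrial ribosome makes the few proteins that yeast mitochondrial DNA encodes. Most of these are core subunits of cytochrome c reductase, cytochrome c oxidase and the ATP synthase, so that cells without a working mitochondrial ribosome cannot respire. Its RNAs come from mitochondrial DNA, whereas nearly all its proteins are encoded in the nucleus, made in the cytosol and imported. The small subunit reads the messenger RNA, and the large subunit joins amino acids and releases the growing chain through an exit tunnel that faces the inner membrane. Some of the proteins descend from those of bacterial ribosomes, while others are known only from mitochondria. The Ras/cAMP/PKA pathway signals glucose to the cell, and high PKA activity is known to favour the genes of the cytosolic ribosome and growth by fermentation. The comparisons ask how the mitochondrial counterparts stood in cells with raised cAMP, with and without TPK3.

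The labels were borne out by the targeted genes. PDE2 was lower than in wild type in Δpde2 cells (log2 fold change -4.78, SE 0.37, adjusted p = 0.000269 by limma) and in Δpde2Δtpk3 cells (-4.81, SE 0.42, adjusted p = 0.00412), while TPK3 was lower in Δpde2Δtpk3 cells, by comparison with wild type (-4.02, SE 0.19, adjusted p = 0.000345). Adjusted p-values are those of 1 limma fit of the 3 strains, with the Benjamini-Hochberg method applied to all 5449 genes. The word called stands for an adjusted p under 0.05. Levels are quantile normalized log2 values. They are compared between arrays for 1 gene and never between genes. The replicates are separate samples by their labels, and the p-values measure the spread between these samples only.

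One array stood apart. Wild type replicate 1 had correlations across genes of 0.868 and 0.878 with the other wild type arrays, which had a correlation of 0.992 with each other. The difference bore on the genes described here. Their median level was 11.04, 11.10 and 11.10 on the Δpde2 arrays, 11.24 and 11.15 on the Δpde2Δtpk3 arrays and 10.67, 11.06 and 11.17 on the wild type arrays. Of the 65 genes, 41 (63.1%) were lower on wild type replicate 1 than the mean of the other wild type arrays, against 42.1% of all genes, and the median difference was -0.37 for the 65 genes and 0.12 for all genes. There were 10 members lower on it by more than 1 on the log2 scale (15.4%, against 11.7% of all genes). None was higher by as much, and the share of all genes higher by as much was not counted. The largest differences were in MRPS17 (-2.49), RSM28 (-2.19) and RSM18 (-2.15), all of the small subunit. The median SD of a member was 0.0606 over the Δpde2 arrays, 0.0842 over the Δpde2Δtpk3 arrays and 0.276 over the wild type arrays, and it was 0.0460 over wild type replicates 2 and 3. The 3 strains share 1 estimate of each gene's spread, so that this array also enters the test between the mutants. Counts of called members are therefore given with all 8 arrays and, beside them, with the normalization and the fit repeated without wild type replicate 1.

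**Figure D1:**
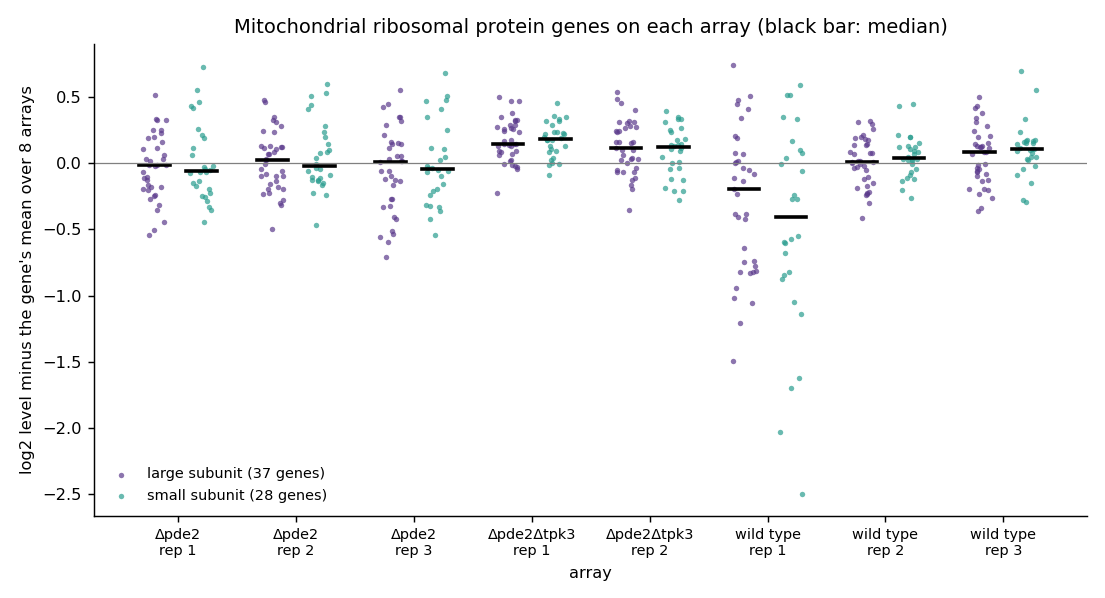
Log2 level of each of the 65 genes minus its own mean over the 8 arrays (vertical axis), for each array (horizontal axis), with the large subunit in purple and the small subunit in green. Points are genes and black bars are medians. The Δpde2Δtpk3 medians lie above the zero line, those of Δpde2 lie near it, and wild type replicate 1 has the lowest medians and the widest spread of points.

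With all arrays, the shares of members called between Δpde2 and Δpde2Δtpk3 cells were near or below those of all genes. Of the 65, 4 were called lower in Δpde2 cells (6.15%, against 7.41% of all genes) and 0 were called higher (5.56% of all genes). At an unadjusted p under 0.05, 14 were lower (14.7% of all genes) and 4 were higher (14.5%). The median log2 fold change was -0.16, against 0.02 over all genes, and 45 of the 65 values were negative. No member was called with a change of 2 fold or more (3.96% of all genes). For 34 members every Δpde2 array lay below both Δpde2Δtpk3 arrays (52.3%, against 30.6% of all genes), and for 16 every Δpde2 array lay above them (24.6%, against 34.0%).

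The 4 genes called were MRPL39, MRPL20, MRPL7 and RSM26. MRPL39 (YML009C), the counterpart of the bacterial large subunit protein bL33, had levels of 10.97, 11.16 and 10.76 in Δpde2 cells, 11.82 and 11.92 in Δpde2Δtpk3 cells and 11.47, 11.79 and 11.89 in wild type cells. Every Δpde2 array lay below every array of both other strains. The log2 fold change of Δpde2 over Δpde2Δtpk3 cells was -0.91 (SE 0.17, n = 3 and 2 arrays, adjusted p = 0.0212 by limma), the largest among the 65. MRPL20 (YKR085C), a large subunit protein (mL58) known only from mitochondria, stood at 9.48, 9.74 and 9.51 in Δpde2 cells, 10.31 and 10.33 in Δpde2Δtpk3 cells and 10.53, 10.10 and 10.17 in wild type cells. Again no Δpde2 array reached the others, and the ratio to Δpde2Δtpk3 cells was -0.74 on the log2 scale (SE 0.16, adjusted p = 0.0312). MRPL7 (YDR237W), the uL5 protein of the central protuberance of the large subunit, had 10.53, 10.61 and 10.31 in Δpde2 cells, 11.18 and 11.00 in Δpde2Δtpk3 cells and 11.25, 10.94 and 10.96 in wild type cells. Its Δpde2 values were likewise the lowest, and Δpde2 over Δpde2Δtpk3 cells gave -0.60 (SE 0.16, adjusted p = 0.0483).

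RSM26 (YJR101W) was the only one of the 4 from the small subunit. It encodes mS42, which is related in sequence to manganese superoxide dismutase, as is its partner MRP1 (mS43). Its levels were 10.57, 10.71 and 10.50 in Δpde2 cells, 11.05 and 11.14 in Δpde2Δtpk3 cells and 10.93, 10.82 and 10.92 in wild type cells. The Δpde2Δtpk3 arrays were the highest of the 8 and the Δpde2 arrays the lowest, and the log2 fold change of Δpde2 over Δpde2Δtpk3 cells was -0.50 (SE 0.12, adjusted p = 0.0365). MRP1 had 11.17, 11.12 and 11.15 in Δpde2 cells and 11.46 and 11.36 in Δpde2Δtpk3 cells, and was not called, at -0.26 (SE 0.11, adjusted p = 0.170). All 4 calls were lost when any 1 array of either mutant was left out, while the direction was the same each time. Adjusted p-values by limma reached 0.124 for MRPL39, 0.146 for MRPL20, 0.194 for MRPL7 and 0.169 for RSM26. The calls of MRPL7 and RSM26 were also lost without wild type replicate 2 or 3, and that of MRPL20 without replicate 3. MRPL7 was not called with the values as deposited (adjusted p = 0.0605) or centred on the median (0.0633). MRPL13, a large subunit protein (mL50), had the smallest change of the 65 in this comparison, -0.01 (SE 0.12, adjusted p = 0.961).

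Without wild type replicate 1, 27 members were called lower (41.5%, against 20.8% of all genes) and 11 higher (16.9%, against 23.8%), and the median log2 fold change was -0.16. At an unadjusted p under 0.05 these counts were 30 (25.1% of all genes) and 13 (28.3%). With only the arrays of the mutants in the fit, 23 were lower (19.7% of all genes) and 10 higher (22.7% of all genes), and all 33 of these were among the 38 called without wild type replicate 1. The median SE of a member was 0.175 with all arrays and 0.0941 without wild type replicate 1. The 4 genes above were among the 27. The others included MRPL44 (mL53) at -0.76, MRPL49 (bL21) at -0.74, MRP2 (uS14) and MRPL4 (uL29) at -0.65 each, MRPL19 (uL11) at -0.61 and RSM25 (mS23) at -0.56. MRPL49 showed the pattern plainly, with 10.45, 10.51 and 10.36 in Δpde2 cells, 11.19 and 11.18 in Δpde2Δtpk3 cells and 9.75, 10.91 and 11.19 in wild type cells. Its mutant arrays did not overlap, and its wild type values spanned both mutants through replicate 1.

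The 11 genes called higher in Δpde2 than in Δpde2Δtpk3 cells without wild type replicate 1 were RSM10, RSM22, MRPL24, MRPL23, MRP21, MRPL25, MRPL31, MRPS35, MRPS17, MRPL40 and MRP49. RSM10, the uS10 protein of the small subunit head, had 13.06, 13.11 and 13.02 in Δpde2 cells and 12.51 and 12.47 in Δpde2Δtpk3 cells. With all arrays its log2 fold change was 0.57 (SE 0.27, adjusted p = 0.210), and without wild type replicate 1 it was 0.57. MRP49 (mL61 of the large subunit) lies next to TPK3 on the chromosome, between it and KKQ8, and is the only member that neighbours a deleted gene. It had 11.80, 11.87 and 11.89 in Δpde2 cells, 11.52 and 11.54 in Δpde2Δtpk3 cells and 11.62, 11.82 and 11.86 in wild type cells. The Δpde2Δtpk3 arrays were the lowest of the 8, by 0.32 against Δpde2 cells (SE 0.12, adjusted p = 0.122, with a range of 0.0151 to 0.315 over the other settings). Against wild type the value for Δpde2Δtpk3 cells was -0.24 (SE 0.12, adjusted p = 0.313). Whether the neighbouring replacement bears on this was not tested.

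**Figure D2:**
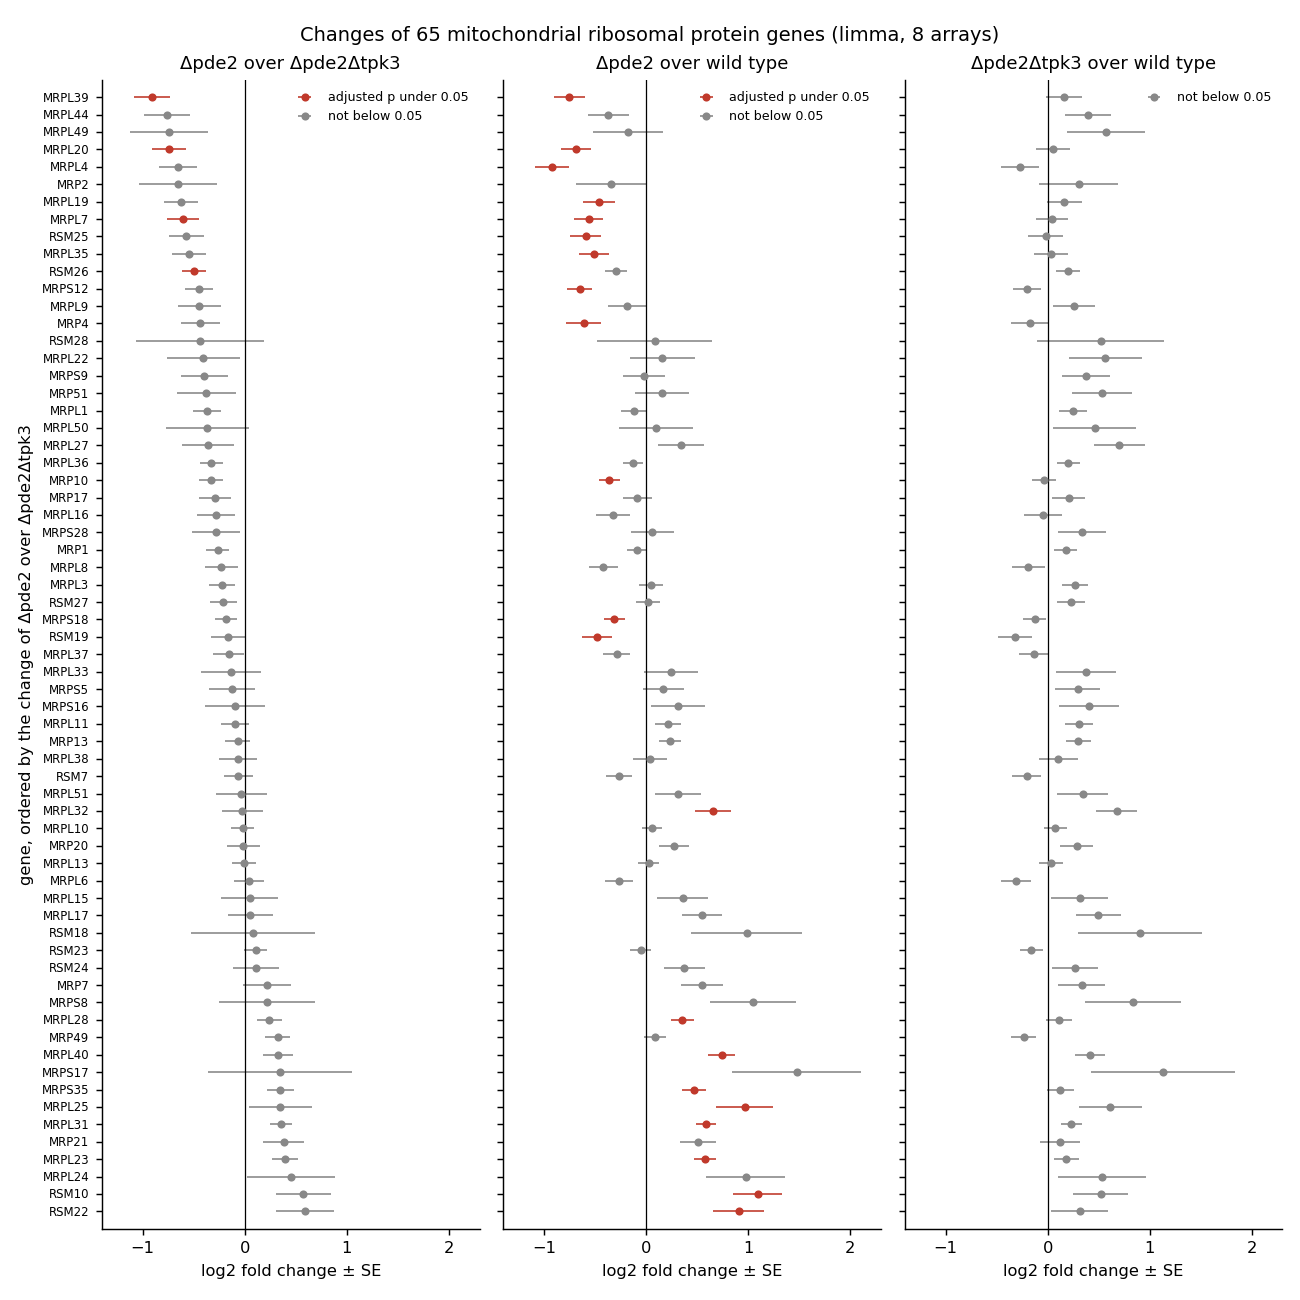
Log2 fold change (horizontal axes, points, with bars of 1 SE either side) of each of the 65 genes (vertical axis) for Δpde2 over Δpde2Δtpk3, Δpde2 over wild type and Δpde2Δtpk3 over wild type, from the fit of all 8 arrays. Red points have an adjusted p under 0.05. There are 4 of them in the first panel, all negative, 21 of both signs in the second and 0 in the third.

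Against wild type, the Δpde2 cells had members called in both directions. With all arrays 12 were lower (18.5%, against 21.9% of all genes) and 9 were higher (13.8%, against 19.5%), with a median log2 fold change of 0.06 for the 65 genes and 0.03 for all genes. Every Δpde2 array lay below every wild type array for 18 members (30.9% of all genes) and above for 21 (31.1% of all genes), and without wild type replicate 1 this held for 34 (38.7% of all genes) and 23 (41.6%). Without wild type replicate 1, 22 were lower (33.8%, against 29.4% of all genes) and 17 higher (26.2%, against 31.5%). These held all 12 and all 9 of the genes called with it, but the median turned to -0.08. This comparison shares its Δpde2 arrays with the previous one, so that their values are not independent.

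The largest decrease against wild type was in MRPL4 (YLR439W), the uL29 protein at the exit of the tunnel. It had 10.37, 10.31 and 10.22 in Δpde2 cells, 11.10 and 10.81 in Δpde2Δtpk3 cells and 11.55, 11.12 and 11.01 in wild type cells. The log2 fold change of Δpde2 over wild type was -0.93 (SE 0.17, n = 3 arrays each, adjusted p = 0.00483). Values for MRPL39 (-0.75, SE 0.16, adjusted p = 0.00868), MRPL20 (-0.69, SE 0.15, adjusted p = 0.00968) and MRPL7 (-0.57, SE 0.14, adjusted p = 0.0169) were called here too. MRPS12, the uS12 protein of the decoding centre, had 12.26, 12.30 and 12.00 in Δpde2 cells, 12.72 and 12.55 in Δpde2Δtpk3 cells and 12.89, 12.75 and 12.87 in wild type cells. These 3 groups of arrays did not overlap, and the change was -0.65 (SE 0.12, adjusted p = 0.00582). RSM19 (uS19), the gene next to MRPS12 on the chromosome, had 11.04, 11.09 and 10.93 in Δpde2 cells and 11.75, 11.36 and 11.39 in wild type cells, which is -0.48 on the log2 scale (SE 0.15, adjusted p = 0.0373).

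The other 6 of the 12 were MRP4 (uS2), RSM25 (mS23), MRPL35 (mL38 of the central protuberance), MRPL19 (uL11 of the stalk base), MRP10 (mS37) and MRPS18 (uS11), with log2 fold changes between -0.61 and -0.31. MRP4 stood at 10.39, 10.14 and 10.28 in Δpde2 cells, against 11.20, 10.81 and 10.64 in wild type cells (-0.61, SE 0.17, adjusted p = 0.0256). RSM25 stood at 9.62, 9.84 and 9.64, against 10.58, 10.09 and 10.22 in wild type cells (-0.59, SE 0.15, adjusted p = 0.0185). In MRPL35 the Δpde2 values of 10.92, 11.05 and 10.87 were below those of wild type, 11.19, 11.53 and 11.65 (-0.51, SE 0.15, adjusted p = 0.0303). The calls of MRPL4, MRPL39, MRPL20 and MRPS12 held whichever 1 of the 8 arrays was left out. Those of MRP4, RSM25, MRPL7 and MRPL35 were lost without at least 1 of the Δpde2 arrays. That of MRPL35 was also lost without wild type replicate 2 or 3.

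Of the 9 members called higher in Δpde2 cells, RSM10 (YDR041W) had the largest change over wild type, and with all arrays it was the only member called by 2 fold or more in any comparison (16.0% of all genes in this one). Its levels were 13.06, 13.11 and 13.02 in Δpde2 cells, 12.51 and 12.47 in Δpde2Δtpk3 cells and 11.37, 12.31 and 12.23 in wild type cells. The log2 fold change was 1.09 (SE 0.24, adjusted p = 0.0113), and 0.79 without wild type replicate 1, which is under 2 fold. MRPL40, the uL24 protein, had 11.10, 11.10 and 11.20 in Δpde2 cells, 10.80 and 10.82 in Δpde2Δtpk3 cells and 10.14, 10.54 and 10.51 in wild type cells (0.74, SE 0.13, adjusted p = 0.00489). Here too the 3 groups did not overlap. MRPL31 (mL60) stood at 12.20, 12.16 and 12.19 in Δpde2 cells, against 11.68, 11.57 and 11.54 in wild type cells (0.58, SE 0.10, adjusted p = 0.00329). MRPL23 (uL13) stood at 12.65, 12.75 and 12.74 in Δpde2 cells, against 12.27, 11.98 and 12.16 in wild type cells (0.58, SE 0.11, adjusted p = 0.00677). These 4 calls held whichever 1 array was left out.

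The remaining 5 were MRPL25 (mL59; 0.96, SE 0.28, adjusted p = 0.0296), RSM22, MRPL32 (bL32; 0.65, SE 0.18, adjusted p = 0.0235), MRPS35 (mS45; 0.47, SE 0.12, adjusted p = 0.0178) and MRPL28 (mL40; 0.35, SE 0.11, adjusted p = 0.0425). The first 4 of these calls were lost without any 1 of the Δpde2 arrays, and that of MRPS35 also without wild type replicate 3. MRPL32 is cut to its mature form by the m-AAA protease after import. It had 10.78, 10.90 and 10.81 in Δpde2 cells, 10.83 and 10.87 in Δpde2Δtpk3 cells and 9.78, 10.36 and 10.40 in wild type cells, so that the mutants overlapped and both lay above wild type. RSM22, which resembles methyltransferases and is tied to the assembly of the small subunit, had 9.45, 9.52 and 9.46 in Δpde2 cells, 8.90 and 8.87 in Δpde2Δtpk3 cells and 7.94, 8.87 and 8.90 in wild type cells. Its Δpde2 arrays were the highest, at 0.90 above wild type (SE 0.25, adjusted p = 0.0259). The range of its adjusted p over the other settings was 9.245e-05 to 0.0892, and it was not called with the values as deposited (0.0850) or centred on the median (0.0892).

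**Figure D3:**
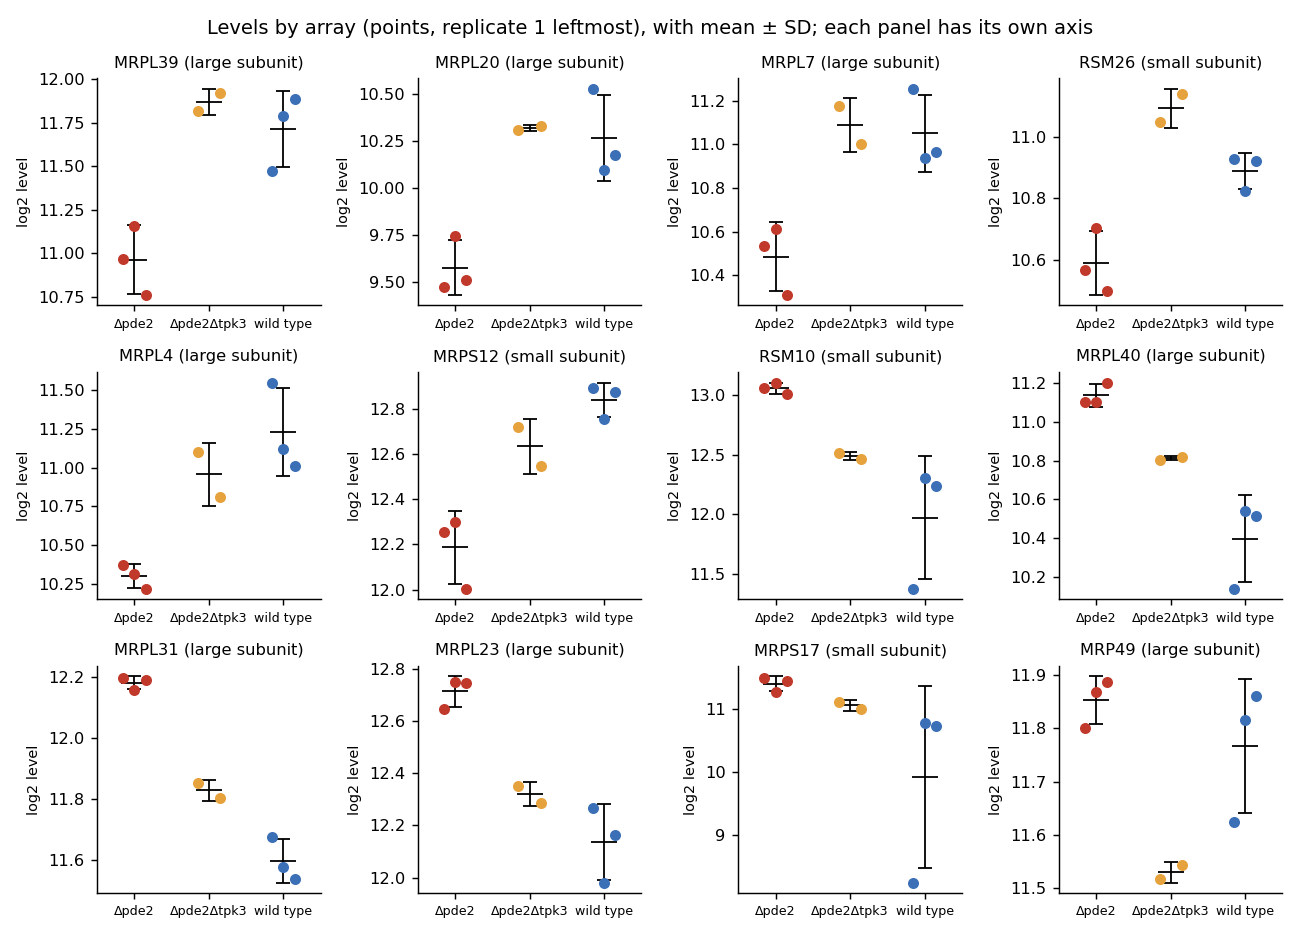
Log2 level (vertical axes, each panel on its own scale) of 12 genes on the Δpde2, Δpde2Δtpk3 and wild type arrays (horizontal axes). Coloured points are arrays, with replicate 1 leftmost, and black marks are the mean with bars of 1 SD. The Δpde2 points are the lowest in the first 6 panels, from MRPL39 to MRPS12, and the highest from RSM10 to MRPL23, and wild type replicate 1 lies far below all other points in MRPS17.

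The largest change against wild type was not called. MRPS17, the uS17 protein of the small subunit body, had 11.48, 11.26 and 11.43 in Δpde2 cells, 11.11 and 10.99 in Δpde2Δtpk3 cells and 8.26, 10.77 and 10.73 in wild type cells. The value of Δpde2 over wild type was 1.47 (SE 0.63, adjusted p = 0.0989), and without wild type replicate 1 it was 0.64 (SE 0.10, adjusted p = 0.00106), with a range of adjusted p over all the other settings of 0.00106 to 0.205. MRPS8 (uS8) moved likewise, at 1.05 with all arrays and 0.50 without, as did RSM18 (bS18), at 0.99 and 0.27. Both were called higher only in the fit without the array. RSM28 (mS46) changed sign, from a value of 0.08 with all arrays to -0.65 without wild type replicate 1. Its levels were 10.66, 10.70 and 10.83 in Δpde2 cells, 11.26 and 11.08 in Δpde2Δtpk3 cells and 9.19, 11.26 and 11.51 in wild type cells. MRP2 (uS14), at -0.35 and -0.79, and MRPL49 (bL21), at -0.18 and -0.60, were called lower in the fit without the array and not with it. The smallest change against wild type was in RSM27 (mS33), at 0.02 (SE 0.12, adjusted p = 0.913).

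**Figure D4:**
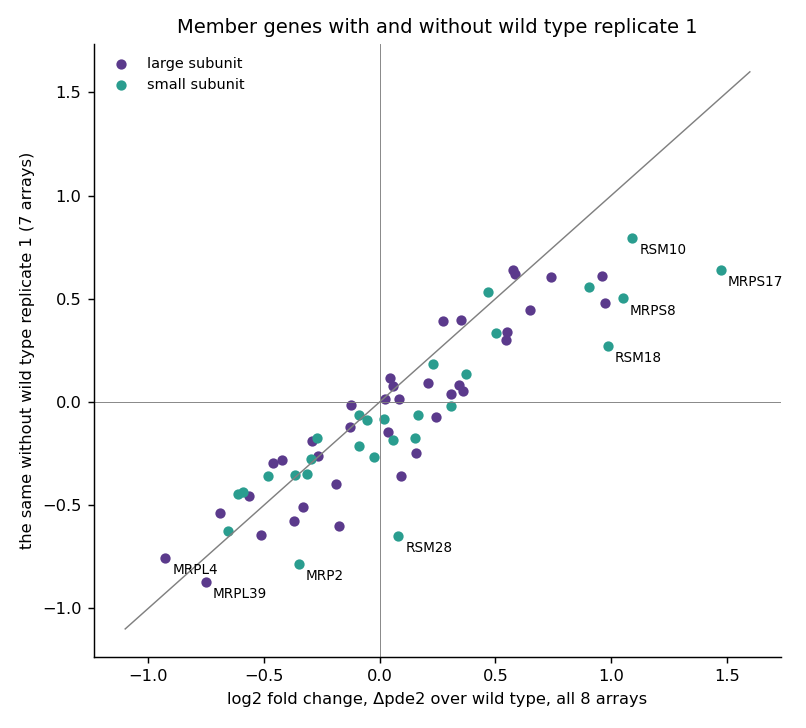
Log2 fold change of Δpde2 over wild type for each of the 65 genes with all 8 arrays (horizontal axis) and with the normalization and fit repeated without wild type replicate 1 (vertical axis), with the large subunit in purple and the small subunit in green. The diagonal marks equal values. MRPS17 lies at 1.47 and 0.64 and RSM28 at 0.08 and -0.65, and MRPL4 lies farthest left, at -0.93.

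Between Δpde2Δtpk3 and wild type cells no member was called in either direction (1.03% of all genes higher, 1.69% lower). At an unadjusted p under 0.05, 4 were higher (8.00% of all genes) and 0 lower (12.1%). Both Δpde2Δtpk3 arrays lay above all wild type arrays for 23 members (16.0% of all genes) and below them for 7 (21.0%). The median log2 fold change was 0.25, against 0.00018 over all genes, and 51 of the 65 values were positive. Without wild type replicate 1 the median was 0.09, and 4 members were called higher (6.15%, against 8.85% of all genes) and 0 lower (9.12% of all genes), with 2 members lower at an unadjusted p under 0.05 (17.9% of all genes). These 4 were all of the large subunit, namely MRPL32 at 0.47, MRPL27 (mL41) at 0.44, MRP20 (uL23 at the tunnel exit) at 0.41 and MRPL1 (uL1) at 0.36. MRPL27 had 11.24 and 11.52 in Δpde2Δtpk3 cells, against 10.16, 10.96 and 10.92 in wild type cells, and 10.97, 11.10 and 10.99 in Δpde2 cells. The largest value with all arrays was again that of MRPS17, 1.13 (SE 0.70, adjusted p = 0.401), and the smallest that of RSM25, -0.02 (SE 0.17, adjusted p = 0.951). With 2 Δpde2Δtpk3 arrays, the median SE of a member was 0.175, and 0.103 without wild type replicate 1.

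Genes of the large and the small subunit are set side by side here and were not tested against each other. Of 37 large subunit genes 3 were called lower in Δpde2 against Δpde2Δtpk3 cells (8.11%), and of 28 small subunit genes 1 (3.57%). Of all genes 7.41% were lower. The median log2 fold changes of the subunits were -0.13 and -0.17. In the fit without wild type replicate 1, 15 large and 12 small subunit genes were lower (40.5% and 42.9%, against 20.8% of all genes). There 6 and 5 were higher (16.2% and 17.9%, against 23.8%). In Δpde2 against wild type cells 6 large subunit genes were lower and 6 higher, and 6 small subunit genes were lower and 3 higher, with medians of 0.06 and 0.04. As shares these were 16.2% lower and 16.2% higher for the large subunit and 21.4% and 10.7% for the small, against 21.9% and 19.5% of all genes. The fit without wild type replicate 1 called 12 large subunit genes lower (32.4%) and 10 higher (27.0%), with a median of -0.01. It called 10 small subunit genes lower (35.7%) and 7 higher (25%), with a median of -0.13. Of all genes it called 29.4% lower and 31.5% higher. In Δpde2Δtpk3 against wild type cells the medians were 0.25 for each subunit with all arrays, and 0.13 and 0.08 without that array. The median of the small subunit on wild type replicate 1 was 0.41 below its genes' means over all arrays, the lowest of any array, and that of the large subunit 0.20 below.

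Against wild type, calls of both directions were found among proteins with and without a bacterial counterpart. With all arrays the shares were near or below those of all genes. Of the 40 proteins with a bacterial counterpart, 8 were lower (20%) and 4 higher (10%) in Δpde2 cells, and of the 24 known only from mitochondria, 4 were lower and 4 higher (16.7% each). These became 15 and 11 of 40 (37.5% and 27.5%) and 7 and 5 of 24 (29.2% and 20.8%) without wild type replicate 1. Of all genes 29.4% were then lower and 31.5% higher. Between the mutants with all arrays 2 of each kind were lower (5% and 8.33%, against 7.41% of all genes) and 0 higher. Of 5 sites of the ribosome, 3 held calls of opposite sign in Δpde2 against wild type cells with all arrays. At the tunnel exit MRPL4 was lower (-0.93) and MRPL40 higher (0.74), while MRP20 (0.27, adjusted p = 0.168) and MRPL22 (0.16, adjusted p = 0.710) were not called. In the central protuberance MRPL7 and MRPL35 were lower and MRPL28 higher, among 6 members. In the head of the small subunit RSM19 was lower and RSM10 higher, among 5. The other two sites had calls of 1 sign, with 2 of 10 lower in the body and platform of the small subunit, MRPS12 and MRPS18, and 1 of 2 lower at the stalk base, MRPL19. Without wild type replicate 1 the body and platform had 2 lower and 4 higher and the stalk base 1 lower and 0 higher. Between the mutants with all arrays MRPL7 was the only member of the 5 sites called. The groups by site were drawn up after the values had been seen.

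Of the 65 genes, 22 (33.8%) were called in at least 1 comparison with all arrays, against 42.0% of all genes, and 48 (73.8%) without wild type replicate 1, against 67.0% of all genes. The 17 called in neither fit were MRPL3, MRPL6, MRPL10, MRPL11, MRPL13, MRPL15, MRPL33, MRPL37, MRPL38 and MRPL51 of the large subunit and MRP13, MRPS5, MRPS16, RSM7, RSM23, RSM24 and RSM27 of the small subunit. Without wild type replicate 1 their log2 fold changes were at most 0.22 in size between the mutants, 0.26 for Δpde2 over wild type and 0.34 for Δpde2Δtpk3 over wild type. MRPL10 (uL15) was among the steadiest, at 11.58 on each of the 3 Δpde2 arrays, 11.70 and 11.50 in Δpde2Δtpk3 cells and 11.57, 11.53 and 11.47 in wild type cells.

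Other genes of mitochondrial gene expression are set beside these by counts from the same fit, and the lists were not tested against the members. Of 14 mitoribosomal proteins with other names, 2 were called lower by limma when Δpde2 was set against Δpde2Δtpk3 (14.3%, against 7.41% of all genes). None was called higher (5.56% of all genes), and the median log2 fold change was -0.31. At an unadjusted p under 0.05, 7 were lower (14.7% of all genes) and 0 higher (14.5%). The 2 called were RTC6 (bL36), at -1.04 (SE 0.13, adjusted p = 0.00729), and IMG1 (bL19), at -0.53 (SE 0.13, adjusted p = 0.0383). RTC6 had 10.23, 10.20 and 10.09 in Δpde2 cells, 11.25 and 11.17 in Δpde2Δtpk3 cells and 11.78, 11.52 and 11.60 in wild type cells, without overlap. Against wild type 5 of the 14 were lower (35.7%, against 21.9% of all genes) and 1 higher (7.14%, against 19.5%). Without wild type replicate 1, 7 were lower between the mutants (50%, against 20.8% of all genes) and 0 higher (23.8% of all genes). In that fit 6 were lower against wild type (42.9%, against 29.4% of all genes) and 1 higher (7.14%, against 31.5%).

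Some of the factors that work with the ribosome were called lower in Δpde2 against Δpde2Δtpk3 cells, where 7.41% of all genes were lower and 5.56% higher, and none was higher, also at an unadjusted p under 0.05. Among 19 translation factors and tRNA or RNA handling genes 5 were lower, including MEF2 (-1.13), which acts in ribosome recycling, the release factor MRF1 (-0.74) and the elongation factor TUF1 (-0.72). Of 14 tRNA synthetases 3 were lower, namely DIA4 (-1.14), ISM1 (-0.66) and NAM2 (-0.52), which charge serine, isoleucine and leucine tRNAs. Of 20 translational activators, which bring single mitochondrial messengers to the ribosome, 4 were lower, with CBS2 at -0.89, PET111 at -0.64, PET494 at -0.58 and MSS51 at -0.51. Of 13 genes for ribosome assembly and attachment to the membrane 4 were lower, among them the ribosome receptor MBA1 (-0.76) and AFG3 (-0.73), a subunit of the m-AAA protease that matures MRPL32. RPO41, the mitochondrial RNA polymerase, was the only one of 9 transcription and RNA processing genes called (-1.06, SE 0.12, adjusted p = 0.00659). RPM2 of the same list had a larger change (-1.28) and was not called. Against wild type 6, 3, 7, 7 and 2 genes of these 5 lists were lower in Δpde2 cells. As shares these were 31.6%, 21.4%, 35%, 53.8% and 22.2%, against 21.9% of all genes. Only 1 was higher (19.5% of all genes), IFM1, the initiation factor (1.12, SE 0.19, adjusted p = 0.00358). When wild type replicate 1 was left out, the 5 lists had 9, 6, 11, 5 and 3 genes lower and 1, 0, 1, 1 and 0 higher between the mutants, where 20.8% and 23.8% of all genes were called. Against wild type they then had 9, 4, 10, 9 and 6 lower and 3, 4, 1, 2 and 0 higher, beside 29.4% and 31.5% of all genes.

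The calls between the mutants rested on few arrays. RTC6 and RPO41 kept theirs whichever 1 array was left out. MAM33, also called lower among the assembly genes (-1.04, adjusted p = 0.0133 by limma), lost its call without Δpde2 replicate 1 or 3 or Δpde2Δtpk3 replicate 1. All other genes of these 6 lists named as called lower in that comparison lost their calls when any 1 array of either mutant was left out. So did RMD9 of the translation factors (-0.69). Adjusted p-values in these limma fits were up to 0.203 for RMD9 and 0.183 for MRF1, whose range over all settings was 0.00766 to 0.183. PET111 was also not called with the values as deposited (adjusted p = 0.267) or centred on the median (0.217), and this held against wild type too (0.276 and 0.203). IMG1 and RMD9 were called in neither of these settings, and MRF1, PET494 and MSS51 were not called with median centring.

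The cytosolic ribosome and the respiratory complexes had calls in 1 direction each with all arrays. A symbol pattern gave 128 genes as cytosolic ribosomal protein genes, among them RPP1, which encodes a subunit of RNase P instead. Their median log2 fold change over Δpde2Δtpk3 cells was 0.38. Of these genes 25 were called higher in Δpde2 cells (19.5%, against 5.56% of all genes) and 0 lower (7.41% of all genes). At an unadjusted p under 0.05, 1 was lower (14.7% of all genes). The median over wild type was 0.47, with 81 higher (63.3%, against 19.5% of all genes) and 0 lower (21.9% of all genes). None was lower there unadjusted either. Of 32 nuclear genes for subunits of complexes III and IV and the ATP synthase 10 were lower (31.25%) and 0 higher against Δpde2Δtpk3 cells. Against wild type 18 were lower (56.25%) and 0 higher. The medians were -0.41 and -0.46. None of the 32 was higher at an unadjusted p under 0.05. When wild type replicate 1 was left out, the cytosolic genes had 82 higher and 1 lower between the mutants and 105 and 0 against wild type. The respiratory genes had 22 and 30 lower and 0 higher. Of all genes 23.8% were then higher and 20.8% lower between the mutants, and 31.5% and 29.4% against wild type. In Δpde2Δtpk3 against wild type cells none of the genes of any of these lists was called with all arrays, against 2.72% of all genes. At an unadjusted p under 0.05, each list had at most 4 higher and 2 lower. The fit without wild type replicate 1, in which 8.85% of all genes were higher and 9.12% lower, called 4 tRNA synthetases and 7 cytosolic ribosomal protein genes higher and none lower, and 1 respiratory gene lower and none higher. It also called 2 higher and 1 lower of the mitoribosomal proteins with other names, 1 and 2 of the translation factors and 1 and 1 of the activators, and 0 in the lists of assembly and of transcription. These lists were put together with results of the same arrays known, and their direction is not independent evidence.

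**Figure D5:**
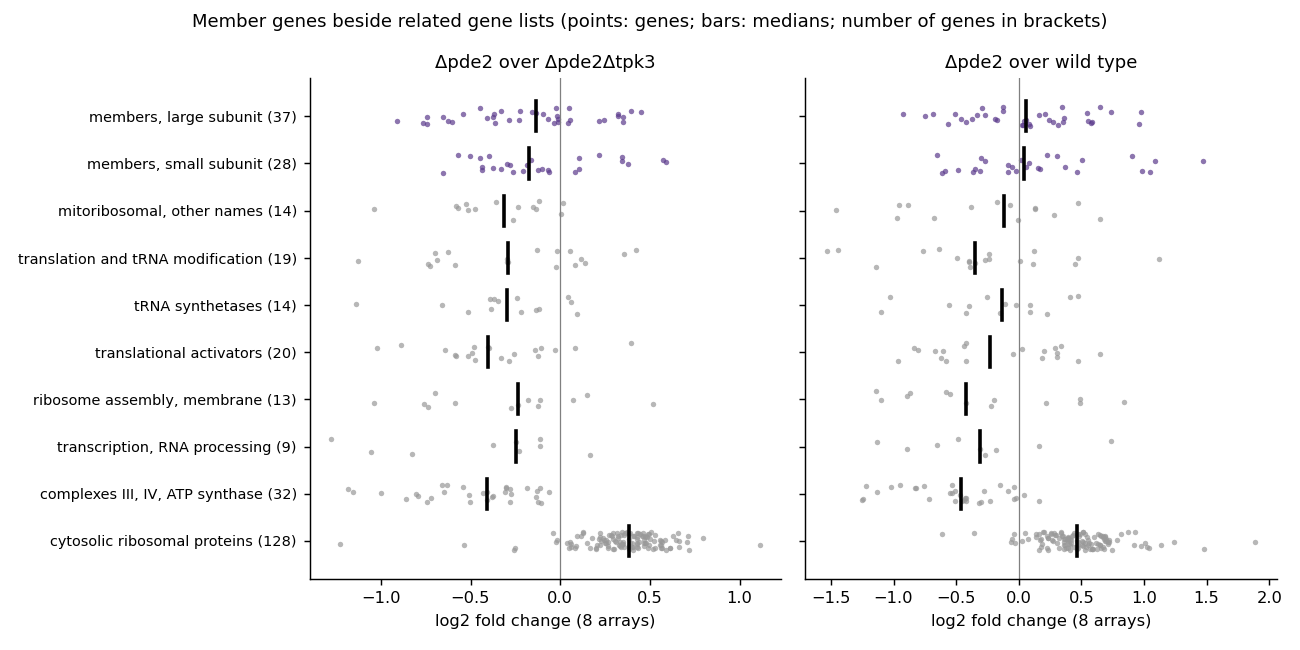
Log2 fold change with all 8 arrays (horizontal axes) of Δpde2 over Δpde2Δtpk3 (left) and over wild type (right) for the 65 genes, by subunit (purple), and for the related lists (grey), with the number of genes in brackets. Points are genes and black bars are medians. The members lie on both sides of zero, with medians of -0.13 and -0.17 on the left, while cytosolic ribosomal proteins have a median of 0.38 and subunits of complexes III and IV and ATP synthase one of -0.41.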

How the data were processed

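The authors deposited 1 table of log2 values for 8 arrays, with 5814 probe sets. The unit was read from its range, and the normalization is not given in the sources used here. Because first quartiles ran from 9.00 to 9.38, above a limit of 0.1, arrays were quantile normalized (limma 3.58.1, R 4.3.3). Annotation gave 1 gene to 5498 probe sets. The other 316, with no gene or with more than 1, were left out. Where a gene had more than 1 probe set (47 genes), the brightest on average stood for it, leaving 5449 genes. The 3 strains entered a single limma model (5 residual degrees of freedom), without a replicate block, with eBayes moderation and Benjamini-Hochberg adjustment. The code was tested on simulated data.

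Members and lists were chosen with earlier results of these data known. The genes named were members called without overlap of arrays (up to 8 in each direction and comparison), members called in the rarer direction, the largest and smallest changes, neighbours of PDE2 or TPK3, and up to 4 called genes of each list. Other names were chosen after their values were seen. Subunits, families and sites come from general knowledge, and adjacency from RefSeq gene order. Alternatives were values as deposited, median centring, leaving out the dimmest 33.3% of genes, the mean of probe sets, a fit of 2 strains alone, limma's trend and robust options, weights per array, the replicate number as a block, leaving out each array, normalization repeated without wild type replicate 1 and a fold of 2. Cultures of each mutant were grown in triplicate per the methods. The deposited table holds 2 arrays of Δpde2Δtpk3, and both were used here.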

Additional observations from a re-analysis of the deposited data

How the results depend on the processing

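Counts of called members moved with the setting, and the share of all genes called in either direction moved too. Between Δpde2 and Δpde2Δtpk3 cells, against 0 higher and 4 lower, there were 1 and 10 without the genes in the dimmest 33.3% (20.5% of all genes called), 10 and 23 with only the arrays of the 2 strains (42.4%), 5 and 16 with array weights (32.5%), 11 and 27 with normalization repeated without wild type replicate 1 (44.6%), 2 higher with trend and robust moderation (14.5%) and 0 lower at a fold of at least 2. Leaving out 1 array in turn gave 0 to 11 higher and 0 to 26 lower, with 26 without wild type replicate 1 (44.6%), 2 without wild type replicate 2 (10.1%), 1 without wild type replicate 3 (9.05%) and 0 without any array of either mutant (0.973% to 2.77%). Against wild type, Δpde2 cells had 9 higher and 12 lower, with 18 and 28 under array weights (71.6% of all genes), 17 and 22 with normalization repeated without wild type replicate 1 (60.9%), and 1 and 0 at a fold of at least 2. Leaving out 1 array gave 4 to 17 higher and 4 to 22 lower, with 4 and 4 without Δpde2 replicate 1 or 3 and 4 and 6 without Δpde2 replicate 2 (25.5% to 27.5%). In Δpde2Δtpk3 against wild type cells the count higher was 1 with array weights (13.6%), 4 with normalization repeated without wild type replicate 1 (18.0%) and 0 to 4 with 1 array left out, and that of lower genes was 0 throughout. The causes were not tested. With 1 array left out, medians ran from -0.210 to -0.133, from -0.0852 to 0.132 and from 0.0901 to 0.253 in the 3 comparisons. The SD of member medians between arrays of a strain was 0.168. Wild type replicate 1 enters this SD itself, so that it cannot tell whether these moves are small.

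Signs changed too. With normalization repeated without wild type replicate 1, 10 members had the other sign in Δpde2 over wild type and 7 in Δpde2Δtpk3 over wild type, and 0 between the mutants. Among these RSM28 moved most, to -0.65 and -0.21 against 0.08 and 0.52 with all arrays. Among the genes chosen by the naming rule, against wild type, Δpde2 cells had TPK3 at 0.20 with values as deposited and 0.15 with median centring (-0.12 to 0.016 with 1 array left out), MRP49 at -0.0038 with array weights, and RSM27 at -0.091 with array weights, -0.08 with normalization repeated without wild type replicate 1 and -0.085 to 0.075 with 1 array left out. RSM25 in Δpde2Δtpk3 cells was at 0.082 with array weights, 0.12 with normalization repeated and -0.124 to 0.121 with 1 array left out. With 1 array left out, Δpde2 over Δpde2Δtpk3 values of MRPL13 ran from -0.067 to 0.043 and those of PDE2 from -0.109 to 0.169.

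Whether the replicate numbers pair the samples could not be settled by correlations of each array's deviations from its strain mean. With 2 Δpde2Δtpk3 arrays these deviations are equal and opposite, so that each value recurs with the other sign. Thus Δpde2 replicate 2 had 0.194 with Δpde2Δtpk3 replicate 2 and -0.194 with Δpde2Δtpk3 replicate 1. In wild type cells the deviations also carry the difference of replicate 1 described above. Deviations of arrays with the same number had correlations of -0.0915, -0.0313 and 0.0138 for Δpde2 with wild type, -0.0308 and 0.118 for Δpde2Δtpk3 with wild type and 0.0491 and 0.194 between the mutants. With the replicate number as a block, Δpde2 cells had 0 members higher and 0 lower than Δpde2Δtpk3 cells, where 1 of 5449 genes was called, and 8 higher and 8 lower than wild type, where 34.6% of all genes were called. The number of arrays limits the precision throughout.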
